A study of Mus musculus with 6 samples.

Results

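Myostatin and the activins are secreted ligands of the TGF-beta family that limit muscle mass, and 10 genes of their pathway were followed in C2C12 myotubes. The genes were chosen by name as the rows of the deposited gene read-count table for the ligands Mstn, Gdf11, Inhba and Inhbb, the receptors Acvr2a and Acvr2b, the secreted binding proteins Fst, Fstl1 and Fstl3, and the intracellular inhibitor Smad7. All 10 were among the 46983 genes of the table, and 9 of them were among the 14450 genes kept by the count filter, the exception being Mstn. C2C12 is a subcloned mouse myoblast line, labelled wild type, that fuses into multinucleated myotubes in low serum, so no other tissue and no animal stands behind these values. The treated myotubes received corticosterone, the glucocorticoid that rodents mainly secrete, at 1e-07 M for 24 h. The control myotubes received its solvent, ethanol, for 24 h, and ethanol is recorded at 1 µL/mL for both groups. Messenger RNA was sequenced in 3 libraries per group, which the submitters describe as independent biological replicates. The comparison made was corticosterone against vehicle.

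In this pathway the ligand dimer binds a type II receptor, encoded by Acvr2a or Acvr2b, which recruits a type I receptor such as those encoded by Acvr1b and Tgfbr1. The type I receptor phosphorylates Smad2 and Smad3, which enter the nucleus with Smad4. Follistatin, encoded by Fst, and the follistatin-like protein encoded by Fstl3 trap the ligands outside the cell, and Smad7 is induced by the signal and shuts the receptor off. In muscle, loss of myostatin enlarges the fibres, and glucocorticoids are known to raise Mstn messenger RNA in rodent muscle.

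Promoter sequences of Mstn and Fstl3 are shown because these were the members whose levels did not overlap between the labelled treatments. Of all genes kept by the count filter, which left out Mstn, 16.6% had no overlap in either direction. The promoter sequences are the 250 bases before the start of the gene, from RefSeq on build GRCm38.p6, in which 8 of the 10 genes matched. Capitals mark the E-box CANNTG, the site of MyoD-type muscle factors, and the half-site AGAACA or TGTTCT of the glucocorticoid receptor. The window of Mstn is chr1:53061390-53061639 on the plus strand and that of Fstl3 is chr10:79777024-79777273 on the plus strand.
Mstn: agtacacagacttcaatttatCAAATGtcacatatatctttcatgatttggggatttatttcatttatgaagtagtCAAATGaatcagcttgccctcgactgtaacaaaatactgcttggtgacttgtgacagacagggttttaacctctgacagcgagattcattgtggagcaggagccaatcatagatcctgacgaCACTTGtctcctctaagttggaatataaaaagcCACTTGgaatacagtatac
Fstl3: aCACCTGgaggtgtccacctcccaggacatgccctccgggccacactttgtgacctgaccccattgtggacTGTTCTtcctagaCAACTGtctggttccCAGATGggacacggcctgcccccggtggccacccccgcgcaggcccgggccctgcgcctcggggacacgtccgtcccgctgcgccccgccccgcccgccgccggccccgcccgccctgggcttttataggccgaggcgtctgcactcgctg
The Mstn window held 4 E-boxes, beginning at -229, -174, -52 and -19 from the start, and no half-site. The Fstl3 window held 3 E-boxes, at -249, -166 and -151, and 1 half-site at -179. Both strands were searched and no marked motif overlapped another. Of 32851 RefSeq promoters of the same length, 66.2% held at least 1 E-box, 12.2% held at least 3 and 3.8% held at least 4, while 16.1% held a half-site. The Smad motif CAGACA or TGTCTG, left in lower case, occurred in both windows, in that of Fstl3 overlapping the E-box at -166, and in 17.1% of all promoters. The full palindrome, AGAACA followed after 3 bases by TGTTCT, lay in neither window and in 3 of all promoters.

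Total counts were 25826081 to 29928653 in the libraries labelled corticosterone and 23877583 to 28496898 in those labelled vehicle. In a pair of libraries, genes that glucocorticoids are known to induce went against the labels. Fkbp5, which encodes a co-chaperone of the glucocorticoid receptor, stood at 151, 36.9 and 135 CPM (read counts scaled to a common library size by TMM) in corticosterone 1, 2 and 3, against 36.9, 177 and 35.4 CPM in vehicle 1, 2 and 3. The libraries labelled corticosterone 2 and vehicle 2 thus lay with the other label, and Tsc22d3 and Per1 were placed in the same way. Every test below follows the labels, and values without these 2 libraries, a choice made from the values of such genes, are given for the members and for most other genes named. Over all 14450 genes kept, the libraries also fell into 3 near pairs with root mean square log2 differences of 0.359 (corticosterone 1 and vehicle 3), 0.362 (vehicle 1 and 2) and 0.399 (corticosterone 2 and 3), where the next was 0.446. Among markers fixed for other cells, 0 of 6 genes of proliferating myoblasts passed the edgeR test, as was true of 0.0% of all genes. At an unadjusted edgeR p under 0.05 there were 3 of 6, where 11.8% of all genes reached it. By sign 4 were lower in corticosterone libraries and 2, Pax7 and Myf5, higher. Top2a and Ccnb1 were lower without overlap, where 16.6% of all genes had no overlap in either direction. The 6 markers summed to 210.3 to 225 CPM in corticosterone libraries and 245 to 251 CPM in vehicle libraries. The 8 myotube markers summed to 11050 to 13410 CPM in corticosterone libraries and 9005 to 12550 CPM in vehicle libraries, all 8 being present in every library. Of 5 adipocyte markers, Adipoq, Cidec and Lep had 0 counts in every library, where 3 counts would equal 0.103 to 0.125 CPM. Plin1 had 1 count in corticosterone 3 and in vehicle 2 and 0 in the others. Fabp4, the 1 adipocyte marker above the filter, had 15, 3 and 28 counts in corticosterone 1, 2 and 3, and 0, 29 and 1 counts in vehicle 1, 2 and 3, at most 1.1 CPM. It was higher where Fkbp5 was higher, without overlap, and its part in the results was not tested. The 3 osteoblast markers summed to 0.384 to 0.480 CPM in corticosterone libraries and 0.313 to 0.710 CPM in vehicle libraries.

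By the labels, 0 of the 9 members tested passed edgeR's quasi-likelihood test at an adjusted p under 0.05, as was true of 0.0% of all 14450 genes. At an unadjusted p under 0.05 there were 2 members of 9, Inhbb and Fstl3, where 11.8% of all genes (1707) reached it. Inhbb was the 1 lower member, where 6.26% of all genes were lower, and Fstl3 the 1 higher member, where 5.55% were higher. DESeq2, which called 138 genes (0.955%), and limma-voom, which called 0, called none of the 9 either, and DESeq2 gave Acvr2b no adjusted p. Without corticosterone 2 and vehicle 2, 0 of 9 members passed, where 0.0208% of 14403 genes did. The median log2 difference of the 9, corticosterone minus vehicle, was 0.19, beside 0.004 over all genes tested. With bulk RNA, fewer cells of a kind and less RNA per cell cannot be told apart for any of the values that follow.

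**Figure D1:**
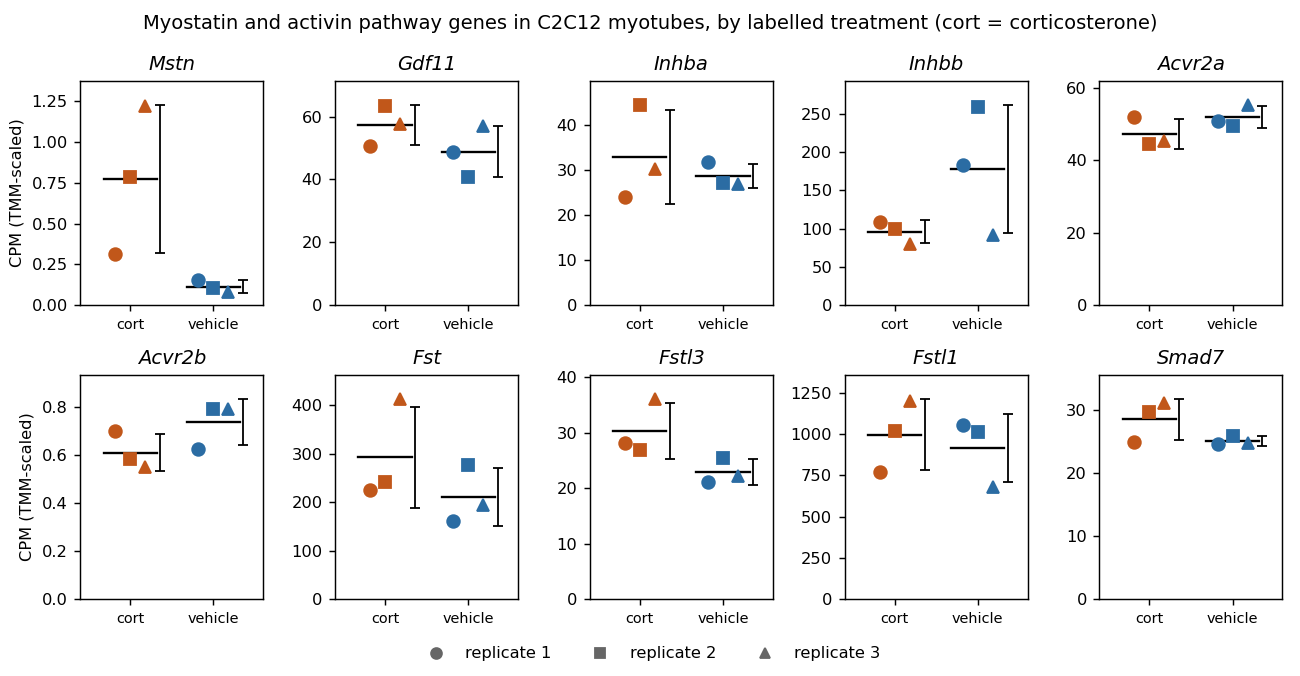
Level of each gene in each library (CPM, y axis from 0) by labelled treatment, with symbols for replicates 1 to 3, lines for group means and bars for the SD of 3 libraries. Only in the Mstn and Fstl3 panels do all corticosterone points lie above all vehicle points, and the vehicle points of Inhbb run from 91.9 to 258 CPM. Of all genes kept by the count filter, 16.6% had no overlap in either direction.

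Mstn, which encodes myostatin (ENSMUSG00000026100, GRCm38 chromosome 1, 53061640 to 53068079, plus strand), was scarce in every library. Its raw read counts were 9, 23 and 31 in corticosterone 1, 2 and 3, and 4, 3 and 2 in vehicle 1, 2 and 3. On the CPM scale these were 0.314, 0.788 and 1.22 against 0.156, 0.103 and 0.0835 CPM, so the labelled groups did not overlap, and vehicle 2 and 3 were at or under the floor of 3 counts. Among genes kept by the count filter, 16.6% had no overlap in either direction. Most of the reads came from one near pair of libraries, corticosterone 2 and 3, with 54 of the 72 reads. The pooled level was 6.60-fold higher in corticosterone than in vehicle libraries, with an exact 95% counting interval of 3.27 to 15.1, which covers counting error only and leaves out the spread between cultures. That spread was large in corticosterone libraries, with a coefficient of variation of 58.4% where counting error alone gives 21.8%. In vehicle libraries it was 32.9%, where counting error gives 57.7%.

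An exact two-sided permutation test of Mstn CPM gave p = 0.1, the smallest that 3 against 3 libraries allow. Mstn was under the count filter. A looser filter, at least 10 counts in all, kept it through the corticosterone libraries, with 63 reads there and 9 in vehicle libraries. Values from that fit thus rest on a gene kept through its higher group and are description only. In that fit of 18066 genes the Mstn log2 difference was 2.69 ± 0.62 (SE), with an unadjusted p of 0.00234 and an edgeR adjusted p of 0.402. With 1 library left out the difference ran from 2.22 to 3.07 and the adjusted p from 0.07 to 0.948. Without both corticosterone 2 and vehicle 2, counts of 9 and 31 stood against 4 and 2, a pooled ratio of 6.11 with a counting interval of 2.57 to 17.6 (edgeR adjusted p = 0.754). The labelled difference in Mstn therefore kept its direction and did not pass the test.

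**Figure D2:**
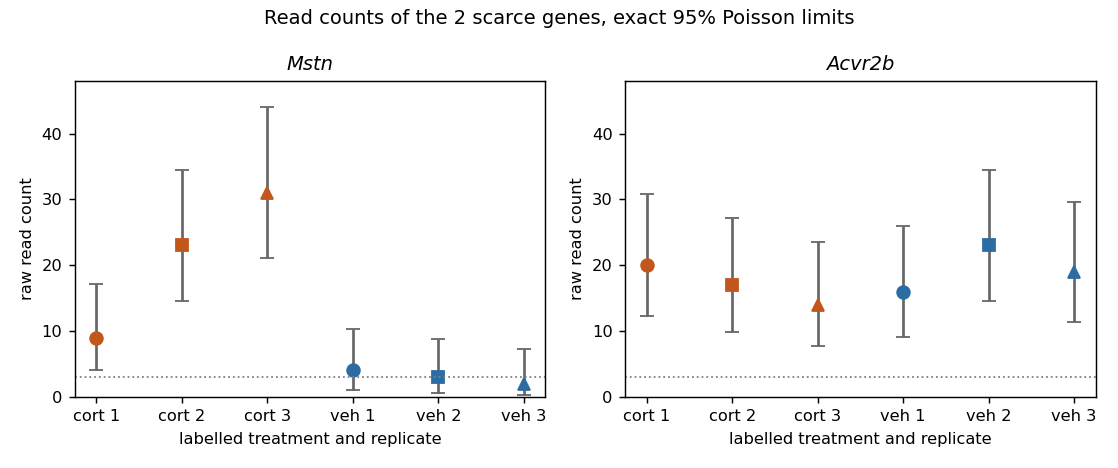
Raw read counts of Mstn and Acvr2b in each library with exact 95% Poisson limits, and a dotted line at the floor of 3 counts. Mstn runs from 9 to 31 reads in corticosterone libraries and from 2 to 4 in vehicle libraries, whereas the Acvr2b limits overlap in all 6 libraries.

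Inhbb, which encodes the beta B subunit of activin B and inhibin B (ENSMUSG00000037035, chromosome 1, 119415465 to 119422248, minus strand), had the widest range of the 9 members tested. It stood at 109, 99.3 and 79.8 CPM in corticosterone 1, 2 and 3, and at 184, 258 and 91.9 CPM in vehicle 1, 2 and 3. Vehicle 1 and 2 were higher than the other 4 libraries, and vehicle 3 lay among the corticosterone libraries, so the groups overlapped. Inhbb averaged 95.9 ± 14.8 CPM in corticosterone libraries and 178 ± 83.4 CPM in vehicle libraries (SD, n = 3 each). The log2 difference was -0.89 ± 0.33 (SE, edgeR adjusted p = 0.386, unadjusted p = 0.0293, and DESeq2 adjusted p = 0.122). Without corticosterone 2 and vehicle 2 it was -0.55 ± 0.33 (adjusted p = 0.818), and with single libraries left out it ran from -1.21 to -0.52. Vehicle 1 and 2 are a near pair, and they also had the lowest summed myotube markers, 9005 and 10590 CPM. Of the single markers, Myh3, Acta1, Ckm, Myog, Tmem8c and Tnnt3 were each lowest in vehicle 1 and 2, Myh3 at 897 CPM in vehicle 2. The remaining markers, Myh1 and Myh8, were not. In vehicle 2, Myh1, at 2241 CPM, lay above corticosterone 2 and 3 (1165 and 1411 CPM), as did Myh8. The part of these markers in the Inhbb difference was not tested.

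Inhba, which encodes the beta A subunit of activin A (ENSMUSG00000041324, chromosome 13, 16011851 to 16031621, plus strand), stood at 24.1, 44.5 and 30.4 CPM in corticosterone 1, 2 and 3, and at 31.8, 27.3 and 26.97 CPM in vehicle 1, 2 and 3. One library, corticosterone 2, stood above the rest and corticosterone 1 was the lowest, so the groups overlapped. The log2 difference of 0.20 ± 0.21 (adjusted p = 0.701) turned to -0.074 without corticosterone 2 and to -0.11 without both libraries numbered 2. Inhba therefore had no direction by label that held without that library.

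Gdf11, the close relative of myostatin (ENSMUSG00000025352, chromosome 10, 128882295 to 128891718, minus strand), was far more abundant than Mstn. It stood at 50.6, 63.4 and 57.8 CPM in corticosterone 1, 2 and 3, and at 48.8, 40.8 and 56.95 CPM in vehicle 1, 2 and 3. Vehicle 2 was the lowest library and vehicle 3 lay above corticosterone 1. The log2 difference was 0.23 ± 0.14 (adjusted p = 0.532), and 0.035 ± 0.13 without both libraries numbered 2.

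Of the receptors, Acvr2a (ENSMUSG00000052155, chromosome 2, 48814109 to 48903269, plus strand), which encodes the activin type IIA receptor, varied little. It stood at 52.0, 44.5 and 45.4 CPM in corticosterone 1, 2 and 3, and at 50.9, 49.5 and 55.2 CPM in vehicle 1, 2 and 3. Corticosterone 2 and 3 were the lowest and corticosterone 1 lay within the vehicle range. The log2 difference was -0.13 ± 0.09 (adjusted p = 0.571), and -0.12 ± 0.12 without both libraries numbered 2 (adjusted p = 0.893). Of its exon length, 7.8% is shared with Orc4 on the other strand, and without strand reads from the shared part cannot be assigned to either gene.

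Acvr2b (ENSMUSG00000061393, chromosome 9, 119402118 to 119434995, plus strand), which encodes the type IIB receptor that binds myostatin strongly, was almost as scarce as Mstn. Its counts were 20, 17 and 14 in corticosterone 1, 2 and 3, and 16, 23 and 19 in vehicle 1, 2 and 3. The spread between libraries, 12.8% in corticosterone and 13.1% in vehicle libraries, was smaller than that expected from counting alone (24.3% and 22.7%). The pooled ratio of corticosterone to vehicle was 0.829 with a counting interval of 0.558 to 1.23, which includes 1 and covers counting error only (edgeR log2 difference -0.27 ± 0.28, adjusted p = 0.701). Its log2 difference was -0.18 ± 0.43 without both libraries numbered 2 (adjusted p = 0.971). Per kilobase of exon, Acvr2a exceeded Acvr2b 51.4-, 52.8- and 57.0-fold in corticosterone 1, 2 and 3, and 56.3-, 43.1- and 48.1-fold in vehicle 1, 2 and 3. In these myotubes the type IIA receptor transcript was thus the more abundant in every library.

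Fst (ENSMUSG00000021765, chromosome 13, 114452290 to 114458951, minus strand), which encodes follistatin, stood at 224, 241 and 413 CPM in corticosterone 1, 2 and 3, and at 162, 278 and 194 CPM in vehicle 1, 2 and 3. Corticosterone 3 stood apart above all others, and vehicle 2 lay above corticosterone 1 and 2, so the groups overlapped. The log2 difference was 0.47 ± 0.28 (adjusted p = 0.525). It was 0.84 ± 0.29 without both libraries numbered 2 (unadjusted p = 0.0266, adjusted p = 0.724), and 0.14 without corticosterone 3, the lowest of the values with 1 library left out. The direction was kept and the test was not passed in any of these fits.

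Fstl3 (ENSMUSG00000020325, chromosome 10, 79777272 to 79782630, plus strand), a follistatin relative that binds activin and myostatin, stood at 28.1, 26.8 and 36.1 CPM in corticosterone 1, 2 and 3, and at 21.03, 25.5 and 22.2 CPM in vehicle 1, 2 and 3. The groups did not overlap, which made Fstl3 the 1 member of 9 without overlap, where 16.6% of all genes tested had none and 8.41% had none with corticosterone higher. It averaged 30.3 ± 5.05 CPM in corticosterone libraries and 22.9 ± 2.31 CPM in vehicle libraries (SD, n = 3 each). The log2 difference was 0.40 ± 0.14 (unadjusted p = 0.0196, edgeR adjusted p = 0.365, DESeq2 adjusted p = 0.238), and 0.57 ± 0.16 without both libraries numbered 2 (adjusted p = 0.723). Of the exon length of Fstl3, 47.3% overlaps Prss57 on the other strand. Prss57 itself had 0 to 2 counts in corticosterone libraries and 1 to 3 in vehicle libraries. Without strand, reads from the shared part cannot be assigned to either gene, so the low Prss57 counts do not settle how such reads were counted.

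Fstl1 (ENSMUSG00000022816, chromosome 16, 37776873 to 37836514, plus strand), a secreted glycoprotein made by muscle that shares the follistatin name, was the most abundant member. It stood at 772, 1018 and 1203 CPM in corticosterone 1, 2 and 3, and at 1054, 1013 and 682 CPM in vehicle 1, 2 and 3. Corticosterone 1 and vehicle 3, which are a near pair, were the lowest, and the groups overlapped. The log2 difference of 0.12 ± 0.21 (adjusted p = 0.829) turned to -0.034 without corticosterone 3 and to -0.061 without vehicle 3, and was 0.19 ± 0.29 without both libraries numbered 2 (adjusted p = 0.938).

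Smad7 (ENSMUSG00000025880), the inhibitor that the signal itself induces, stood at 24.9, 29.7 and 31.03 CPM in corticosterone 1, 2 and 3, and at 24.6, 25.9 and 24.8 CPM in vehicle 1, 2 and 3. Corticosterone 2 and 3 were the highest, while corticosterone 1 lay within the vehicle range. The vehicle libraries differed by less than counting error, with a coefficient of variation of 2.9% where counting gives 3.9%. The log2 difference was 0.19 ± 0.10 (adjusted p = 0.498), and 0.18 ± 0.15 without both libraries numbered 2.

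**Figure D3:**
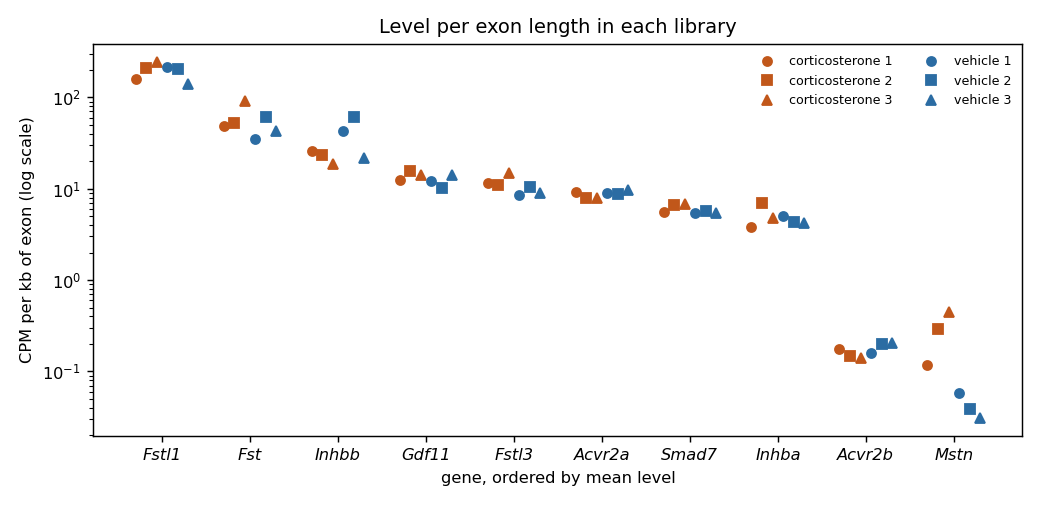
Level of each gene per kilobase of annotated exon (CPM per kb, log axis) in the 3 libraries labelled corticosterone and the 3 labelled vehicle, with genes ordered by their mean over the 6 libraries. Fstl1 leads at a mean of 195, and Acvr2b and Mstn lie lowest at means of 0.172 and 0.164.

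Levels of different genes were compared per kilobase of exon. The length used for Fstl3 includes the 47.3% shared with Prss57, so its level, and sums with it, may be too low if reads there were not counted. The mean over the 6 libraries was 195 CPM per kb for Fstl1, 54.9 for Fst, 32.2 for Inhbb, 13.1 for Gdf11, 10.9 for Fstl3, 8.72 for Acvr2a, 5.93 for Smad7, 4.83 for Inhba, 0.172 for Acvr2b and 0.164 for Mstn. In that order, the library ranges of Fst and Inhbb overlapped, as did those of Gdf11 and Fstl3, Fstl3 and Acvr2a, Smad7 and Inhba, and Acvr2b and Mstn. The ranges of the other neighbours did not overlap, and Fstl1 lay above all other members. Of the summed ligand level of Mstn, Gdf11, Inhba and Inhbb, Inhbb made up 61.0, 50.5 and 49.1% in corticosterone 1, 2 and 3, and 71.7, 80.9 and 54.2% in vehicle 1, 2 and 3. It was thus the most abundant ligand transcript of the 4 in all 6 libraries. The sum of Fst and Fstl3 per kilobase was 1.44, 1.37 and 2.75 times the summed ligands in corticosterone 1, 2 and 3, and 0.728, 0.944 and 1.29 times in vehicle 1, 2 and 3. The groups did not overlap in this ratio, which is given as a description of transcripts chosen with results known, and vehicle 3 lay close to corticosterone 2.

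The labels can also be set aside for the order of the libraries by Fkbp5, with corticosterone 1, corticosterone 3 and vehicle 2 beside corticosterone 2, vehicle 1 and vehicle 3. That division comes from genes measured in the same libraries and is no treatment label. It was given no mean and no test of its own. The fits without both libraries numbered 2 set corticosterone 1 and 3 against vehicle 1 and 3, which also follows this division. The libraries numbered 2 were left out by genes that define it, so values from those fits are description only. None of the 9 members separated along it, where 9.63% of all genes tested did. Fst came near, with 224, 413 and 278 CPM beside 241, 162 and 194 CPM, the exception being corticosterone 2 above corticosterone 1. Fstl3 stood at 28.1, 36.1 and 25.5 CPM beside 26.8, 21.03 and 22.2 CPM, with vehicle 2 under corticosterone 2. Mstn stood at 9, 31 and 3 reads beside 23, 4 and 2 reads and was mixed, as was Inhbb at 109, 79.8 and 258 CPM beside 99.3, 184 and 91.9 CPM.

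Each near pair holds a library with more and a library with less Fkbp5, so the members were read within pairs as well. Fst was 1.15-fold higher in corticosterone 1 than in vehicle 3 (counting interval 1.11 to 1.20), 1.72-fold higher in corticosterone 3 than in corticosterone 2 (1.67 to 1.77), and 1.72-fold higher in vehicle 2 than in vehicle 1 (1.65 to 1.78). Fstl3 was 1.27-, 1.35- and 1.21-fold higher in the same order, with lower counting limits of 1.13, 1.22 and 1.08. Both follistatin-type antagonists were therefore higher in the library with more Fkbp5 in 3 of 3 pairs. Their counting intervals excluded 1, but each ratio sets 1 library against 1 and leaves out the spread between cultures. The pairs were also found in these same data. Fstl1 did not keep 1 direction, with ratios of 1.13, 1.18 and 0.961. Of the other secreted antagonists and binding proteins listed, Dcn, Ltbp3 and Nog were lower in 3 of 3 pairs. Smad7 was higher by ratios of 1.00, 1.05 and 1.06, each within counting error. Gdf11 gave ratios of 0.889, 0.910 and 0.836, all under 1 beyond counting error, and Inhba 0.894, 0.683 and 0.857. In all, 3 of 9 members were higher and 2 of 9 were lower in 3 of 3 pairs, where 20.0% and 20.5% of all genes tested were, so these counts were close to the background. Inhbb did not keep 1 direction, with ratios of 1.18, 0.803 and 1.41, although each of its counting intervals also excluded 1. Mstn gave 3.76 (0.779 to 35.8), 1.55 (0.873 to 2.78) and 0.661 (0.0969 to 3.91), and none of these intervals excludes 1.

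**Figure D4:**
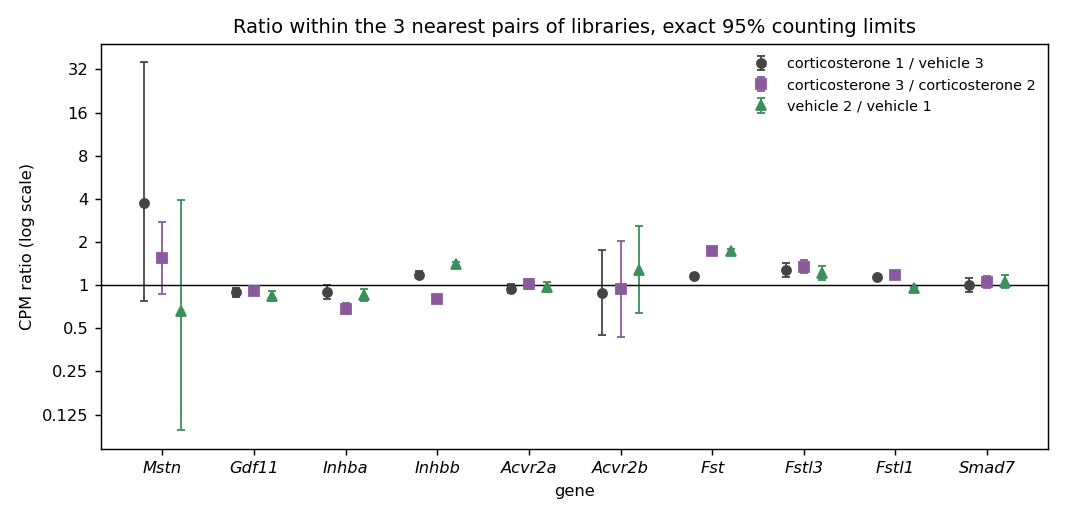
Ratio of CPM (log axis) between the libraries of each near pair, the one with more Fkbp5 over the one with less, with exact 95% counting limits and a line at 1. Fst and Fstl3 lie above 1 and Gdf11 and Inhba under 1 in all 3 pairs, while the Mstn limits span 1 in each.

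The pathway beyond the 10 genes was read from role lists. Of 45 genes including the members, 35 were tested and 0 passed the edgeR test in either direction. By sign alone and with TMM scaling, 17 lay higher and 18 lower in corticosterone libraries, and the median log2 difference was -0.032 beside 0.004 over all genes. At an unadjusted p under 0.05 there were 5, namely Inha, Fstl3 and Furin, higher in corticosterone libraries, and Inhbb and Nog, lower, where 11.8% of all genes reached it. DESeq2 called 1 of the 35, Inha (adjusted p = 0.0492, against 0.364 by edgeR).

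Among the ligands, 0 of 4 tested passed. Inha, which encodes the alpha subunit that turns beta subunits into inhibin in place of activin, stood at 8.84, 9.39 and 10.8 CPM in corticosterone 1, 2 and 3, and at 4.07, 4.17 and 7.26 CPM in vehicle 1, 2 and 3. Vehicle 3 lay nearest to the corticosterone libraries, and the groups did not overlap. Its log2 difference was 0.91 ± 0.24, and 0.80 ± 0.31 without both libraries numbered 2 (edgeR adjusted p = 0.735). Inhbc had 0 counts in all vehicle libraries and was at most 0.0343 CPM in corticosterone libraries, and Inhbe had 0 counts in every library.

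Among receptors, 0 of 5 tested passed and all 5 differences were under 0 on the log2 scale (median -0.18). The type I receptor gene Tgfbr1 averaged 56.0 ± 11.7 CPM in corticosterone libraries and 61.9 ± 5.70 CPM in vehicle libraries (SD, n = 3 each, adjusted p = 0.705). The co-receptor gene Tgfbr3, which encodes betaglycan, averaged 17.7 ± 6.38 CPM in corticosterone and 19.97 ± 10.03 CPM in vehicle libraries (adjusted p = 0.873). Without both libraries numbered 2, Tgfbr1 turned to 0.041 and Tgfbr3 to 0.27. Acvr1c, Tdgf1 and Bambi were under the filter, which left Acvr1b and Tgfbr1 as the listed type I receptors that were tested.

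Among secreted antagonists and binding proteins, 0 of 7 tested passed, with 4 positive and 3 negative. Nog stood at 1.82, 2.3 and 1.65 CPM in corticosterone 1, 2 and 3. In vehicle 1, 2 and 3 it stood at 3.24, 2.93 and 2.46 CPM, so it was lower in corticosterone libraries without overlap. Its log2 difference was -0.58 ± 0.22 (edgeR adjusted p = 0.388), and -0.72 ± 0.31 without both libraries numbered 2 (adjusted p = 0.755). Ltbp3, which encodes a latent TGF-beta binding protein, averaged 411 ± 71.6 CPM in corticosterone and 449 ± 29.0 CPM in vehicle libraries (adjusted p = 0.701). Dcn, which encodes the matrix proteoglycan decorin that can bind myostatin, stood at 15.6, 31.7 and 24.7 CPM in corticosterone 1, 2 and 3, and at 73.4, 37.1 and 21.6 CPM in vehicle 1, 2 and 3. Vehicle 1 was far above the others and vehicle 3 lay among the corticosterone libraries (log2 difference -0.88 ± 0.44, adjusted p = 0.463). Without both libraries numbered 2, the log2 difference was -1.24 ± 0.55 for Dcn and -0.30 ± 0.13 for Ltbp3 (adjusted p = 0.755 and 0.75). Among the proteases that cut the proproteins, 0 of 4 tested passed. Furin, which encodes the convertase that cleaves promyostatin, stood at 184, 204 and 204 CPM in corticosterone 1, 2 and 3, and at 163, 167 and 172 CPM in vehicle 1, 2 and 3, without overlap (log2 difference 0.24 ± 0.07, adjusted p = 0.364). Bmp1, whose product releases latent myostatin, averaged 217 ± 24.4 CPM in corticosterone and 212 ± 19.7 CPM in vehicle libraries (adjusted p = 0.902). Furin stood at 0.21 ± 0.11 on the log2 scale without both libraries numbered 2 (adjusted p = 0.801), and the log2 difference of Bmp1, 0.04, turned to -0.10 (adjusted p = 0.923).

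Among the Smad mediators and inhibitors, 0 of 12 tested passed, with 5 positive and 7 negative and a median of -0.039. Ski, which encodes a Smad co-repressor, averaged 203 ± 25.5 CPM in corticosterone and 229 ± 22.1 CPM in vehicle libraries (adjusted p = 0.564). Ppm1a, which encodes a Smad phosphatase, averaged 151 ± 5.32 CPM in corticosterone and 144 ± 4.08 CPM in vehicle libraries (adjusted p = 0.711). Without both libraries numbered 2, the log2 differences were -0.29 ± 0.13 for Ski and 0.11 ± 0.10 for Ppm1a (adjusted p = 0.759 and 0.893).

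Of the genes known as targets of Smad2 and Smad3, 0 of the 6 reported and tested passed by label. Along the Fkbp5 division 3 of the 6 did not overlap, where 9.63% of all genes tested did not. They were 1 higher gene, where 4.89% of all genes were higher, and 2 lower genes, where 4.74% were lower. The list was chosen with results of these libraries known and is not counted in full, so nothing is read from these counts. Ctgf, which encodes a matricellular growth factor, stood at 481, 591 and 577 CPM in corticosterone 1, corticosterone 3 and vehicle 2, beside 177, 167 and 131 CPM in corticosterone 2, vehicle 1 and vehicle 3. Pmepa1, whose product dampens Smad signalling, went the other way, at 601, 613 and 689 CPM beside 746, 753 and 716 CPM in the same order, as did Ltbp2. By label the log2 differences were 0.51 ± 0.63 for Ctgf and -0.14 ± 0.11 for Pmepa1 (adjusted p = 0.748 and 0.614). Without both libraries numbered 2, Ctgf was 1.85 ± 0.18 and Pmepa1 -0.28 ± 0.12 (adjusted p = 0.0863 and 0.755). That fit follows the same division among the libraries kept, so nothing is read from it. Smad7 and Skil, targets of the same factors, overlapped along the division, and Skil ranged from 135 to 149 CPM over the 6 libraries.

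**Figure D5:**
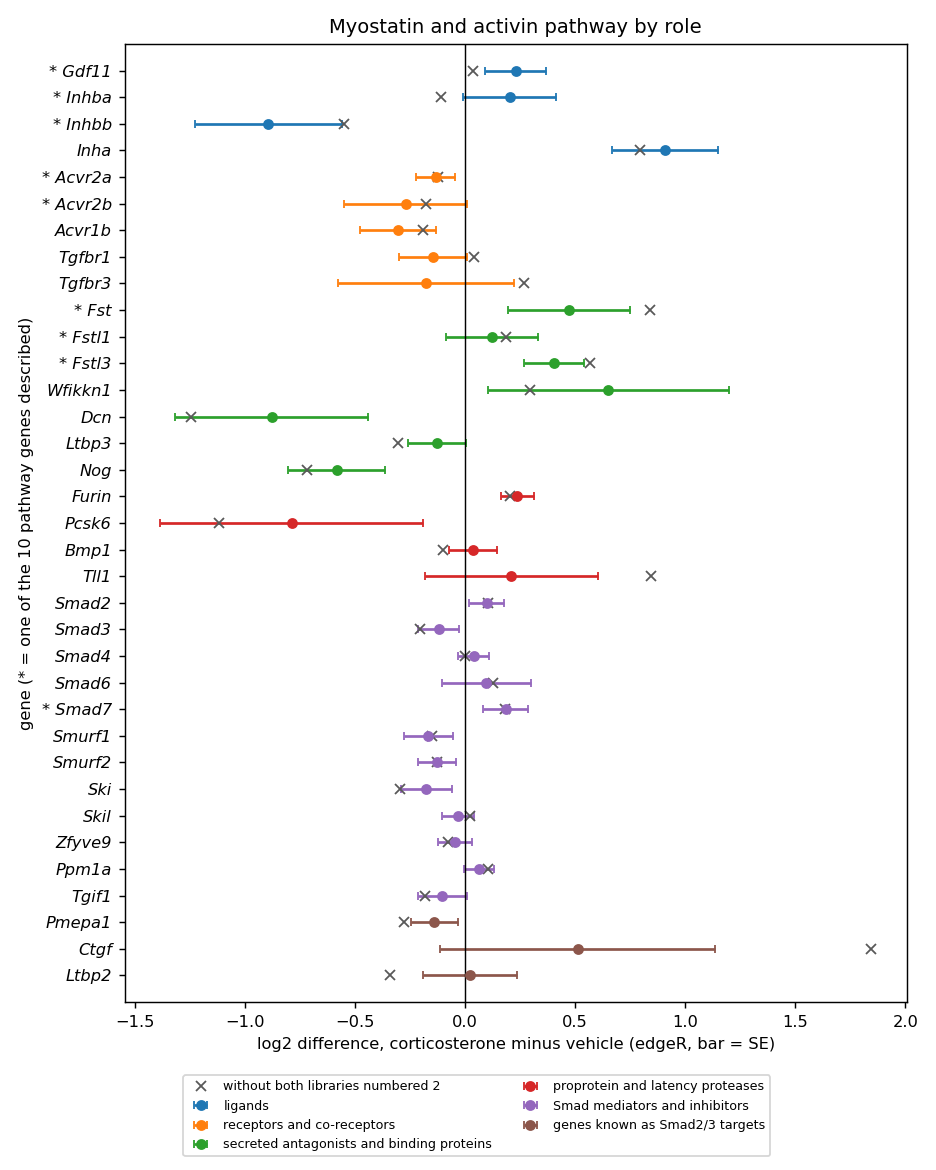
Log2 difference of corticosterone minus vehicle for the 35 pathway genes tested, by role, with bars for the SE over all 6 libraries and crosses for the value without both libraries numbered 2. No gene passes the edgeR test, Inhbb and Inha lie at -0.89 and 0.91, and the cross of Ctgf stands at 1.85.

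The member with the widest range, Inhbb (3.24-fold between its highest and lowest library), was set beside all genes tested for likeness of pattern. The closest by Pearson correlation of log2 CPM over the 6 libraries were Sim2 (r = 0.993), Lin54 (r = 0.992) and Stx11 (r = 0.991), chosen from all genes kept and given as a description. Sim2 stood at 35.7, 33.8 and 32.9 CPM in corticosterone 1, 2 and 3, and at 41.8, 44.7 and 33.8 CPM in vehicle 1, 2 and 3. Like Inhbb, it was highest in vehicle 1 and 2, over a much narrower range.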

How the data were processed

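The deposited file holds raw counts of reads per gene, as the authors made them, in 6 columns, 1 per library. Per the submitters' processing notes, mm10, DESeq2 1.24.0, HTSeq 0.6.1 and HISAT2 2.0.5 were used. Annotation release, strand setting and filters were not given in the sources used here. Columns were matched to samples by their names in the labels, and no column was left over.

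The labelled groups were tested on the counts as deposited with the quasi-likelihood F-test of edgeR 4.0.16 in R 4.3.3. It used TMM scaling, filterByExpr (minimum count 10) and two-sided p-values, with Benjamini-Hochberg adjustment over the 14450 genes kept and a threshold of 0.05. Mstn was read from a fit with at least 10 counts in all (18066 genes). SE is the log2 difference over the root of F. Alternatives were DESeq2 1.42.0, limma-voom (limma 3.58.1), other scalings and filters, a replicate block, and libraries left out. Exon lengths and coordinates came from GENCODE M21 (98.95% of identifiers matched). Counting intervals are exact at 95% and cover counting error only.

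Members and lists were chosen with earlier results of these data known. All members were named, and for each role list any gene called, otherwise the 2 non-members of highest mean CPM. Inhbe, Acvr1c, Tdgf1, Bambi, Nog, Ltbp2 and Skil were also named, chosen after their values were seen. One listed target gene is not reported here, so the counts for the targets and for the wider pathway cover the remaining genes only. With no label naming separate culture dates, p-values measure the spread between these libraries.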

Additional observations from a re-analysis of the deposited data

How the results depend on the processing

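None of the 10 members was called under any of the 16 alternatives in which they were tested, and the edgeR count of 0 called genes over the table depended on the tool and on single libraries. DESeq2 called 138 genes in all and 1 wider pathway gene. With 1 library left out, edgeR called 0 to 29 genes: 29 without corticosterone 1 and 11 without vehicle 3. Without both libraries numbered 2 it called 3. Of 157 member values under an alternative, 153 kept their direction, none passed the threshold, and 4 turned. DESeq2 gave no adjusted p for Mstn and Acvr2b. With 1 library left out, Inhba ran from -0.074 (without corticosterone 2) to 0.39 and Fstl1 from -0.061 (without vehicle 3, and -0.034 without corticosterone 3) to 0.28. Inhba was -0.11 without both libraries numbered 2, and the cause was not tested. The replicate numbers gave no sign of a pairing: deviations of same-numbered libraries from their group means correlated at -0.153, -0.266 and -0.325. No replicate number correlated best with itself. Each number holds a library with more and a library with less Fkbp5, so these correlations cannot decide whether same-numbered cultures were paired. The edgeR fit with the replicate block called 0 genes, with 1227 at an unadjusted p under 0.05 against 1707 without the block. The stricter filter left out Mstn and Acvr2b. Depth limits those 2 genes most, at 2 to 31 reads per library.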
